A study of Mus musculus with 12 samples.

Results

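The comparison described here is that of primary brain endothelial cells (BECs) from cortistatin-deficient (Cort-/-) and wild-type (Cort+/+) mice, exposed to a period without oxygen and glucose that was followed by reoxygenation (OGD-R), across all genes. It was set by its libraries, not by any measured value: 5 of the 12 samples of the series, namely Cort-/- replicates 1 and 3 and Cort+/+ replicates 1, 2 and 3. Of the 12 samples, 10 had a column in the deposited tables, and Cort-/- OGD-R replicate 2 was not analysed here. Both genotypes were on a C57BL/6 background and the mice were 8 weeks old. The Cort-/- line carries a germline deletion, so every cell of the animal lacked the gene during development as well as in culture. Each replicate pooled endothelial cells from 3 mice, and both genotypes went through the same injury, which was 4 h at 1% oxygen in medium without glucose or serum and 20 h of return to oxygen, glucose and serum. The labels also give a stroke model (MCAO) as the disease state, whereas the methods describe cultured cells. The genotype difference in the cultures without injury (normoxia and normoglycemia, NX/NG, 2 Cort-/- and 3 Cort+/+ replicates) is used as a comparison, and whether its libraries came from the same pools of mice is not given in the sources used here.

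Brain endothelium forms the blood-brain barrier: its cells are sealed by tight junctions, rest on a basement membrane that they share with pericytes, and carry transporters that select what enters the brain. Loss of oxygen and glucose followed by their return loosens junctions, remodels the matrix and turns on adhesion molecules and cytokines. Cortistatin is a neuropeptide related to somatostatin that binds the somatostatin receptors and is known for anti-inflammatory actions, and the comparison asks which transcripts of injured endothelium differ when it is missing.

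The values are RPKM, that is read counts scaled to the length of the gene and the size of the library, so that levels compare per length. The 5 libraries held nearly equal numbers of reads on genes, and all 10 libraries lay between 12386048 and 12390428. They were not alike in composition. Ribosomal RNA (Rn18s-rs5) took 0.0951% of the reads in Cort-/- replicate 3 and 0.0775% in Cort+/+ replicate 1, against 9.46% to 15.8% in the other 3 libraries. The first principal component, with 45.2% of the variance, separated these 2 ribosomal RNA-poor libraries from the others, and the pair most alike (Pearson r across genes = 0.956) was of different genotype. Cort itself checked little at this depth, because it had 1 read in Cort+/+ replicate 3 and 0 reads in every other OGD-R library. A count of 0 by counting error alone allows up to 3 reads. Under NX/NG Cort was at 0.241, 0.112 and 0.128 RPKM in the Cort+/+ libraries and at 0 RPKM in the Cort-/- libraries. The main results are given with and without Cort+/+ replicate 1, which leaves 2 libraries against 2. Leaving it out does not balance composition, because Cort-/- replicate 3 then remains as the only ribosomal RNA-poor library. A fit with a term for ribosomal RNA-poor libraries is among the alternatives given below.

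At an FDR of at most 0.05 no gene was called. The limma fit on log2(RPKM + 0.1) tested 14325 of 29775 genes, those reaching 1 RPKM in 2 or more libraries, and 0% of them passed the Benjamini-Hochberg FDR. At an unadjusted p under 0.05 it held 212 genes (1.48%) that were higher and 321 (2.24%) that were lower in Cort-/-. Libraries of the genotypes did not overlap for 1137 genes that were higher (7.94%) and for 1178 that were lower (8.22%). Together the 533 genes at that p were 3.72%, below the 0.05 share that the threshold passes on average where genotypes do not differ. The genes without overlap were 16.2%, below the share of 0.2 that genotype labels set at random would give. Without Cort+/+ replicate 1 no gene was called among 14096, with 284 (2.01%) higher and 336 (2.38%) lower at an unadjusted p under 0.05, and 319 genes were below that p in both fits. On the reads recovered from the RPKM values, limma-voom called 1 gene, Pdpn, and it held 479 genes at an unadjusted p under 0.05. A comparison of 2 against 3 values cannot go below p = 0.2 in an exact two-sided permutation test, so the limma fit, which pools the spread across genes, was used. Fold changes here are on the log2(RPKM + 0.1) scale, which understates those of low genes, and a value in brackets after the levels of a gene is that difference, Cort-/- minus Cort+/+, with its SE. The p-values set a difference against the spread between libraries of the same genotype. That spread holds differences between pools of mice together with the difference in ribosomal RNA share.

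**Figure D1:**
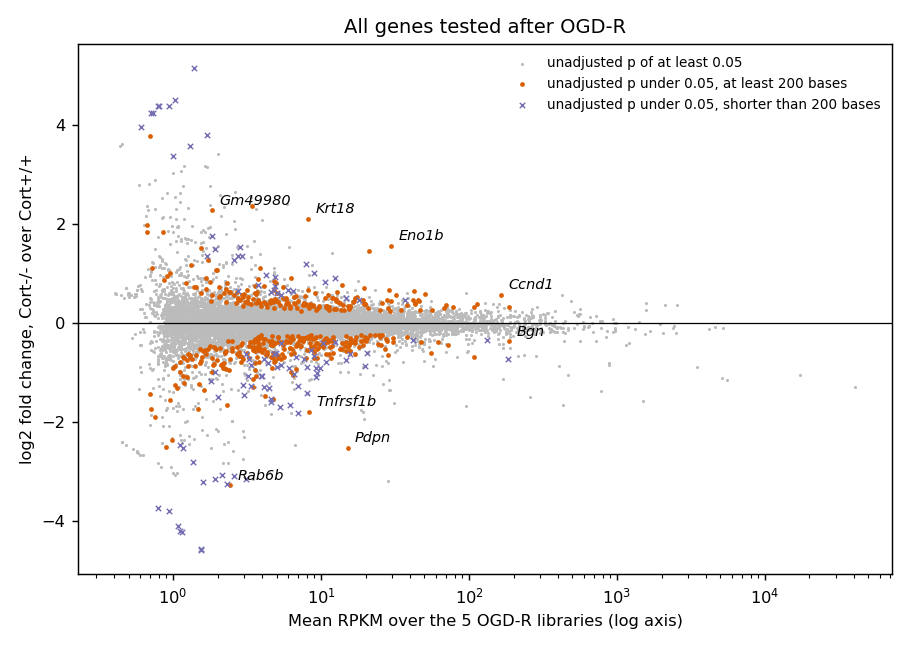
Log2 fold change of Cort-/- over Cort+/+ after OGD-R (vertical axis) against the mean RPKM of the 5 libraries (log axis), 1 point for each of the 14325 genes tested. Orange points and purple crosses mark the 533 genes whose unadjusted p was under 0.05 (points, 200 bases or longer; crosses, shorter), and many of the crosses lie at low levels and far from 0.

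Podoplanin (Pdpn) had the lowest p of all genes. It encodes a mucin-like membrane glycoprotein of lymphatic endothelium, fibroblasts and leptomeningeal cells that binds a platelet receptor. Pdpn was at 3.66 and 3.95 RPKM in the Cort-/- replicates and at 20.6, 20.5 and 26.8 RPKM in the Cort+/+ replicates. Both Cort-/- libraries lay far below every Cort+/+ library, and the 2 ribosomal RNA-poor libraries sat with their own genotype. The means were 3.81 ± 0.207 RPKM (SD, n = 2) and 22.6 ± 3.59 RPKM (SD, n = 3), or 23.6 ± 4.41 RPKM (SD, n = 2) without Cort+/+ replicate 1. On the log2 scale the difference was -2.53 (SE 0.15), a level 5.77-fold lower in Cort-/-, with a limma FDR of 0.0595 that misses the threshold, and it was -2.59 (SE 0.17) without Cort+/+ replicate 1, with a limma FDR of 0.468 from 4 libraries. Under NX/NG, in other libraries, Pdpn differed by -2.48 (SE 0.26), and the interaction of genotype and environment was -0.05 (SE 0.32). Summed fibroblast and leptomeningeal markers, some of the cells known to carry podoplanin, were at 214 and 275 RPKM in Cort-/- and at 366, 339 and 262 RPKM in Cort+/+, and their part in the Pdpn value was not tested.

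Rab6b came next by p. Its product is a small GTPase of Golgi traffic that is best known from neurons. Rab6b was at 0.322 and 0.277 RPKM (19 and 19 reads) in Cort-/- and at 3.11, 3.49 and 5.01 RPKM (215, 195 and 301 reads) in Cort+/+. No Cort-/- library came near the Cort+/+ levels, and the difference was -3.29 on the log2 scale (SE 0.27), or 9.76-fold lower, with a limma FDR of 0.189. It was -3.42 (SE 0.32) without Cort+/+ replicate 1 and -3.31 (SE 0.34) under NX/NG, where the levels were 0.241 and 0.188 RPKM in Cort-/- and 3.96, 2.00 and 3.45 RPKM in Cort+/+. Rab6b lies on chromosome 9, whereas Cort lies on chromosome 4.

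Tumour necrosis factor receptor 2 (Tnfrsf1b), through which the cytokine signals to survival and inflammatory pathways, was at 3.93 and 2.65 RPKM in Cort-/- and at 10.1, 10.99 and 13.7 RPKM in Cort+/+. The genotypes did not overlap, and the difference was -1.7998 (SE 0.21), or 3.48-fold lower, with a limma FDR of 0.639. It was -1.89 (SE 0.23) without Cort+/+ replicate 1, and under NX/NG it was -1.62 (SE 0.12). Miip, an inhibitor of cell migration and invasion, was at 1.86 and 2.12 RPKM in Cort-/- against 4.67, 4.56 and 4.22 RPKM in Cort+/+. Its difference of -1.14 (SE 0.13) was 2.20-fold, was -1.11 (SE 0.16) without Cort+/+ replicate 1, and was smaller in value under NX/NG at -0.86 (SE 0.20).

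Since the cells had been deprived of oxygen, the promoters of the 3 genes with the largest fold among these are shown with the core of the hypoxia response element, ACGTG or GCGTG read on either strand, in capitals (CACGT and CACGC are the same letters on the other strand). The sequences run 5′ to 3′ on the strand of the gene from 250 bases before to 50 bases after its RefSeq start on GRCm38.p6, at chr4:143299515-143299814 (minus strand) for Pdpn, chr9:103111824-103112123 (plus strand) for Rab6b and chr4:145246821-145247120 (minus strand) for Tnfrsf1b.
Pdpn: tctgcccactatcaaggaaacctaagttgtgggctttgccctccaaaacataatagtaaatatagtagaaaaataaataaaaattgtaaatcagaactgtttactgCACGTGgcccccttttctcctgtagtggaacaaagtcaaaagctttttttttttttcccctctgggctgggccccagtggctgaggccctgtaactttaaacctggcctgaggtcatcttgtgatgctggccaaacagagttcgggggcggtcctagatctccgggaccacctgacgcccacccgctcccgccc
Rab6b: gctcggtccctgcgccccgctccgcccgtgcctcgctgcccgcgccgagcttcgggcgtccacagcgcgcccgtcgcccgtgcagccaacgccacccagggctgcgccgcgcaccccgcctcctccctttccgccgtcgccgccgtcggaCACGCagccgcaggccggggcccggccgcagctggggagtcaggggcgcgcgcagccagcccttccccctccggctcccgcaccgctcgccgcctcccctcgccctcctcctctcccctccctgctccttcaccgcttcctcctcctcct
Tnfrsf1b: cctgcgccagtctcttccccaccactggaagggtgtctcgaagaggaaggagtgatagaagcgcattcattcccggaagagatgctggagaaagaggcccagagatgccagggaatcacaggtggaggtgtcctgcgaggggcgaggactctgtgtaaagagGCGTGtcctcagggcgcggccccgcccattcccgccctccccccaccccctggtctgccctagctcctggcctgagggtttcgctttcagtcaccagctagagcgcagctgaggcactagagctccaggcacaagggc
The Pdpn promoter held 2 matches, which overlap because CACGTG reads the same on both strands, and the Rab6b and Tnfrsf1b promoters held 1 each. Of 32851 promoters of this length, 43.8% hold at least 1 match, so the match is a description of these windows only.

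The 30 genes with the lowest p (9 higher and 21 lower in Cort-/-) all missed the FDR threshold for a call, and apart from Pdpn and Rab6b their limma FDR lay between 0.639 and 0.665. Of these 30, 18 were at least 200 bases long and 12 were shorter. All 18 of the longer genes kept their direction and an unadjusted p under 0.05 without Cort+/+ replicate 1. They were picked by their p in these same libraries, most of which that fit reuses, so it is not independent evidence. In the NX/NG libraries 17 of the 18 differed in the same direction and 12 had an unadjusted p under 0.05, where 771 of all 14220 genes tested (5.42%) were higher and 1102 (7.75%) were lower at that p. The predicted gene Gm50373 was the exception, with -0.94 (SE 0.13) after OGD-R and 0.11 (SE 0.42) under NX/NG. The plot of RPKM by library shows that no Cort-/- library overlapped a Cort+/+ library for any of the 18. The plot of the genotype difference shows how closely the values with and without Cort+/+ replicate 1 followed each other. Both follow in part from the choice of these genes by p.

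**Figure D2:**
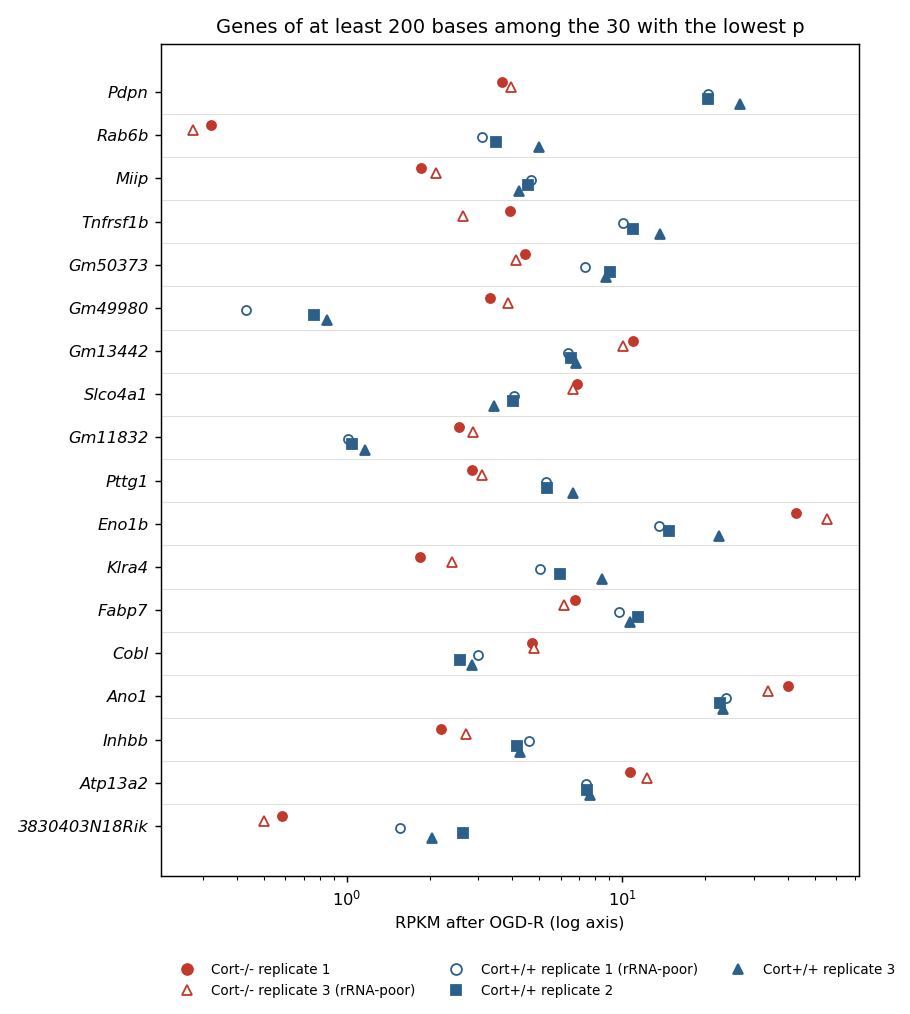
RPKM after OGD-R (log axis) of the 18 genes of at least 200 bases among the 30 with the lowest p, 1 symbol for each of the 5 libraries (red, Cort-/-; blue, Cort+/+; open symbols, the 2 ribosomal RNA-poor libraries). Pdpn, Rab6b, 3830403N18Rik and Tnfrsf1b are among the lower genes with wide gaps between the genotypes, and Gm49980, Gm11832 and Eno1b among the higher ones.

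**Figure D3:**
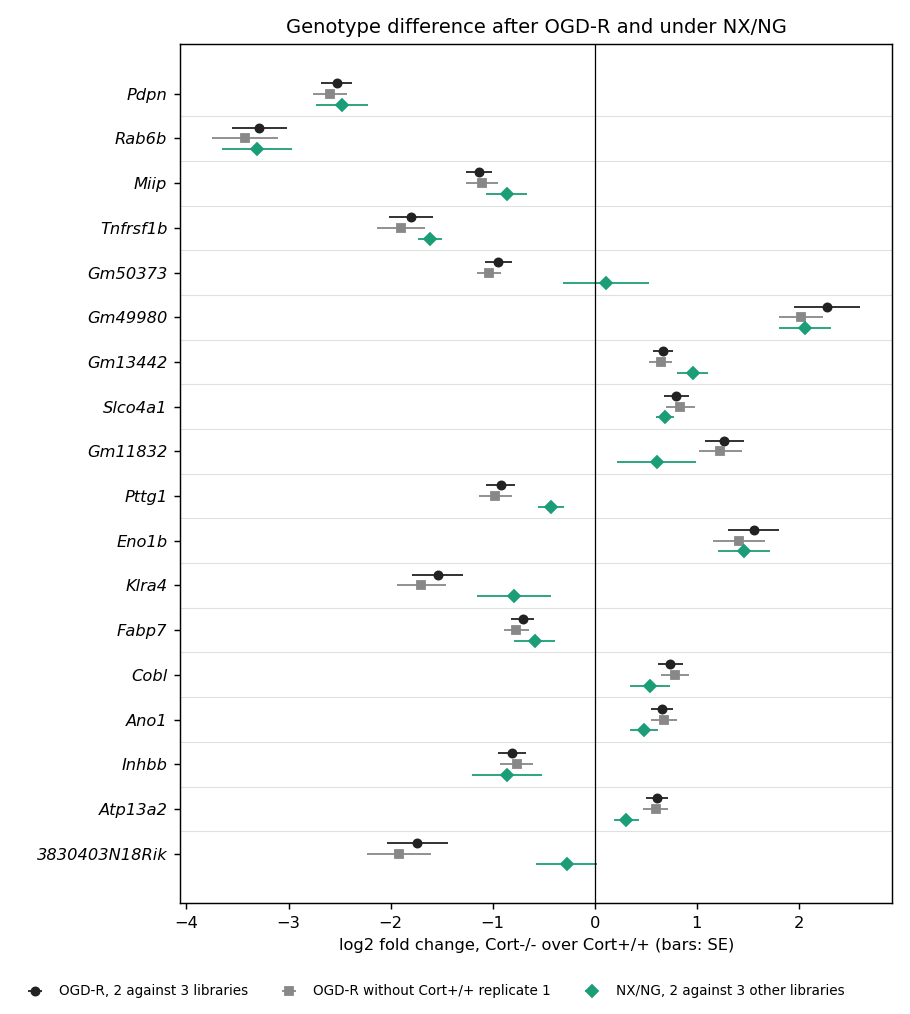
Log2 fold change of Cort-/- over Cort+/+ (points, with SE as bars) for the same 18 genes in 3 fits: OGD-R with 2 against 3 libraries (black), OGD-R without Cort+/+ replicate 1 (grey) and NX/NG (green). Pdpn, Rab6b and Eno1b lie almost on each other in the 3 fits, whereas Gm50373 and 3830403N18Rik lie near 0 under NX/NG.

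Among the genes with a higher value in Cort-/- in these 18, Eno1b had the highest level. It is a copy of the glycolytic enzyme gene Eno1 on chromosome 18, at 42.9 and 55.5 RPKM in Cort-/- and at 13.6, 14.8 and 22.5 RPKM in Cort+/+. The difference of 1.56 (SE 0.25) was 1.42 (SE 0.25) without Cort+/+ replicate 1. It is uncertain which gene the reads came from, because 79.2% of the 40-base words of its transcripts also occur in Eno1 and 86.9% in some other gene. Gm49980, a predicted gene, was at 3.31 and 3.84 RPKM in Cort-/- and at 0.431, 0.761 and 0.849 RPKM in Cort+/+, a difference of 2.28 (SE 0.32), and of 2.02 (SE 0.22) without Cort+/+ replicate 1. It rested on 46 and 62 reads against 7, 10 and 12 reads, and was 2.06 (SE 0.26) higher under NX/NG.

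The higher genes with known roles were smaller in fold. Ano1, a calcium-activated chloride channel, was at 40.0 and 34.0 RPKM in Cort-/- against 23.8, 22.7 and 23.2 RPKM in Cort+/+ (0.66, SE 0.11). The transporter of organic anions and thyroid hormone Slco4a1 was at 6.84 and 6.61 RPKM against 4.04, 4.03 and 3.42 RPKM (0.80, SE 0.12). Cobl, which nucleates actin filaments, was at 4.71 and 4.79 RPKM against 3.00, 2.58 and 2.86 RPKM (0.74, SE 0.12). In each of these 3 genes the Cort+/+ libraries lay close together and both Cort-/- libraries lay above them. Atp13a2, a lysosomal polyamine transporter, was at 10.7 and 12.3 RPKM in Cort-/- against 7.38, 7.44 and 7.66 RPKM in Cort+/+ (0.61, SE 0.10), and under NX/NG the difference was 0.31 (SE 0.12). These 4 genes differed without Cort+/+ replicate 1 by 0.68, 0.84, 0.79 and 0.60 in the order named. The other 2 higher genes, Gm13442 (0.67, SE 0.10) and Gm11832 (1.27, SE 0.19), lie antisense to Aif1l and Rad54b.

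Of the lower genes, Pttg1 encodes securin, which holds sister chromatids together until anaphase. It was at 2.86 and 3.11 RPKM in Cort-/- and at 5.32, 5.36 and 6.61 RPKM in Cort+/+ (-0.92, SE 0.14). The difference under NX/NG was -0.43 (SE 0.13), and Pttg1 was 1 of 2 of the 18 genes whose interaction of genotype and environment had an unadjusted p under 0.05 (-0.49, SE 0.19, limma FDR 1.00). The other was 3830403N18Rik, a gene of unknown role on the X chromosome, at 0.584 and 0.502 RPKM (7 and 7 reads) against 1.57, 2.64 and 2.05 RPKM (22, 30 and 25 reads). It differed by -1.74 (SE 0.30) after OGD-R and by -0.27 (SE 0.30) under NX/NG, with an interaction of -1.47 (SE 0.42, limma FDR 1.00). Across all 14854 genes tested the limma interaction fit called 0 genes and held 269 at an unadjusted p under 0.05, and limma-voom also called 0.

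Inhbb, a subunit of activin B and inhibin B, was at 2.20 and 2.70 RPKM in Cort-/- and at 4.60, 4.17 and 4.27 RPKM in Cort+/+ (-0.81, SE 0.14). Fabp7, a carrier of fatty acids known from astrocytes and neural progenitors, was at 6.75 and 6.16 RPKM against 9.73, 11.5 and 10.6 RPKM (-0.71, SE 0.11). Klra4, a receptor of natural killer cells, was at 1.85 and 2.41 RPKM against 5.03, 5.93 and 8.47 RPKM (-1.54, SE 0.25). These 3 did not overlap between genotypes, and without Cort+/+ replicate 1 they differed by -0.76, -0.77 and -1.70.

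The 12 short genes among the 30 were microRNA genes, small nucleolar RNAs, other short RNAs and a T-cell receptor joining segment, classes that mRNA libraries capture poorly. Their highest read count in any library ranged from 2 to 405 with a median of 4.5. Mir7019 had 3 and 3 reads in Cort-/- and 0 reads in every Cort+/+ library, and at such counts no fold is given. It lies inside Pink1 and, like Snora16a in Snhg12 and Gm24134 in Rpl7a, has 100% of its 40-base words in transcripts of that gene, so its reads cannot be told apart from those of the host. Mir7063, Mir6931, Mir6941 and Snord37 lie inside Ap2a2, Dcakd, Jag2 and Eef2 on the same strand, and 0% of their words occur in annotated transcripts of other genes. Of the 11 short genes that could be tested under NX/NG, 7 differed in the same direction, and ENSMUSG00002074901, with 224 and 242 reads in Cort-/- against 405, 355 and 364 in Cort+/+, was 1 of 2 with an unadjusted p under 0.05 there. Genes shorter than 200 bases made up 7.07% of the genes tested and 101 of the 533 at an unadjusted p under 0.05.

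Of these genes Pdpn, Tnfrsf1b, Miip and Atp13a2 lie near Cort, which is at position 149125034 to 149126763 of chromosome 4 (GRCm38). Within 10 Mb of Cort, 21 of 166 genes tested (12.7%) reached an unadjusted p under 0.05, of which 8 were higher and 13 lower in Cort-/-, against 3.72% of all genes tested, and 17 of 163 did without Cort+/+ replicate 1. A deleted gene and the chromosome segment inherited with it cannot be told apart in these libraries. Pdpn lies 5.83 Mb away, Tnfrsf1b 3.88 Mb, Miip 1.26 Mb and Atp13a2 8.12 Mb. The closest was Dffa, the inhibitor of the nuclease that fragments DNA in apoptosis, whose end is 0.00439 Mb from Cort, at 9.18 and 7.68 RPKM in Cort-/- and at 5.70, 6.13 and 5.34 RPKM in Cort+/+ (0.55, SE 0.13). Its levels did not overlap between genotypes and it differed by 0.55 (SE 0.15) without Cort+/+ replicate 1.

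More distant members of the same window differed in both directions. Clstn1, a cargo adaptor of axonal transport, was at 41.4 and 37.4 RPKM in Cort-/- against 26.2, 28.5 and 25.8 RPKM in Cort+/+ (0.55, unadjusted p 0.00222). Nppb, the natriuretic peptide B gene, was at 0.764 and 1.13 RPKM against 3.54, 3.92 and 2.25 RPKM (-1.66, unadjusted p 0.00173). Zfp990, a zinc finger gene, was at 2.41 and 1.03 RPKM in Cort-/- and at 0, 0.0515 and 0.0239 RPKM in Cort+/+. Of the cytokine receptors beside Tnfrsf1b, Tnfrsf8 was at 2.32 and 1.29 RPKM against 2.91, 5.08 and 5.78 RPKM (-1.30, SE 0.37). Cort+/+ replicate 1 was the lowest of its group for Tnfrsf8, and without it the difference was -1.59 (SE 0.30).

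The cultures carried endothelial markers at a high level in every library. All 17 endothelial markers were tested, none had an unadjusted p under 0.05 in either direction, and their summed level ranged from 1610 to 2012 RPKM over the 5 libraries. Cdh5, the cadherin of endothelial junctions, was at 740.0 and 519 RPKM in Cort-/- and at 484, 486 and 582 RPKM in Cort+/+. Pecam1 was at 255 and 198 RPKM against 163, 188 and 224 RPKM. Cort-/- replicate 1 was the highest for both, and the genotypes overlapped. The median log2 fold change of the 17 was 0.14, 0.14 without Cort+/+ replicate 1 and 0.05 without Cort-/- replicate 1, beside -0.01 for all genes tested.

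Tight junctions seal the space between endothelial cells. Of 15 tight junction genes tested, 3 were higher and 1 was lower in Cort-/- at an unadjusted p under 0.05, with a median of 0.22. For this and the lists that follow, the counts stand against 1.48% of all genes tested that were higher and 2.24% that were lower at that p. Cgnl1, which links junctions to the actin cytoskeleton, was at 86.4 and 90.3 RPKM against 76.0, 66.2 and 71.3 RPKM (0.31, SE 0.11). Jam3 was the lower one, at 5.97 and 7.33 RPKM against 8.40, 8.33 and 8.11 RPKM (-0.32, SE 0.12). The genes that define the seal of the barrier overlapped between genotypes: Cldn5 was at 116 and 105 RPKM against 113, 136 and 117 RPKM (-0.15, SE 0.13). Occludin (Ocln) was at 11.9 and 12.2 RPKM against 9.18, 10.9 and 12.3 RPKM (0.17, SE 0.14), and Tjp1 at 96.3 and 58.7 RPKM against 56.4, 55.3 and 82.8 RPKM (0.24, SE 0.28). Without Cort+/+ replicate 1 the list had 1 higher and 0 lower with a median of 0.14, and without Cort-/- replicate 1 it had 0 and 0 with a median of 0.07.

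Another of the higher tight junction genes, Cldn6, belongs with a group of epithelial transcripts that marked 1 library. Cldn6 was at 3.81 RPKM in Cort-/- replicate 1, at 1.41 RPKM in Cort-/- replicate 3 and at 0.508, 1.31 and 0.632 RPKM in Cort+/+ (1.504, SE 0.55). Keratin 8 (Krt8), the partner of keratin 18 in simple epithelia, was at 11.9 RPKM in Cort-/- replicate 1, at 0.0749 RPKM in Cort-/- replicate 3 and at 0.260, 0.138 and 0.128 RPKM in Cort+/+. Epithelial cadherin (Cdh1) was at 2.80 and 0.0641 RPKM in Cort-/- and at 0.0478, 0 and 0.0183 RPKM in Cort+/+. Epcam was at 1.40 RPKM in Cort-/- replicate 1, at 0.0995 RPKM in Cort+/+ replicate 1 and at 0 in the other 3 libraries. For these 3 genes Cort-/- replicate 3 was like the wild type, so the height of the Cort-/- mean came from 1 library. Keratin 18 (Krt18) was at 20.9 and 8.67 RPKM in Cort-/- and at 7.04, 3.13 and 1.28 RPKM in Cort+/+, a difference of 2.10 (SE 0.73), of 2.68 (SE 0.59) without Cort+/+ replicate 1 and of 1.47 without Cort-/- replicate 1.

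Summed over the 18 epithelial markers, the level was 52.4 RPKM in Cort-/- replicate 1, 21.97 RPKM in Cort-/- replicate 3 and 21.5, 14.6 and 10.9 RPKM in Cort+/+. None of the 18 was at 0 in Cort-/- replicate 1, whereas 10 were in Cort-/- replicate 3 and 5, 11 and 9 in the Cort+/+ libraries, as the plot of epithelial genes shows. A wild-type library without injury had the same pattern: in Cort+/+ NX/NG replicate 2 Cdh1 was at 2.89 RPKM, Epcam at 1.94 RPKM and Cldn4 at 7.29 RPKM, against 0.275, 0.287 and 1.95 RPKM in Cort-/- NX/NG replicate 2. The part of epithelial cells in the junction values above was not tested.

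**Figure D4:**
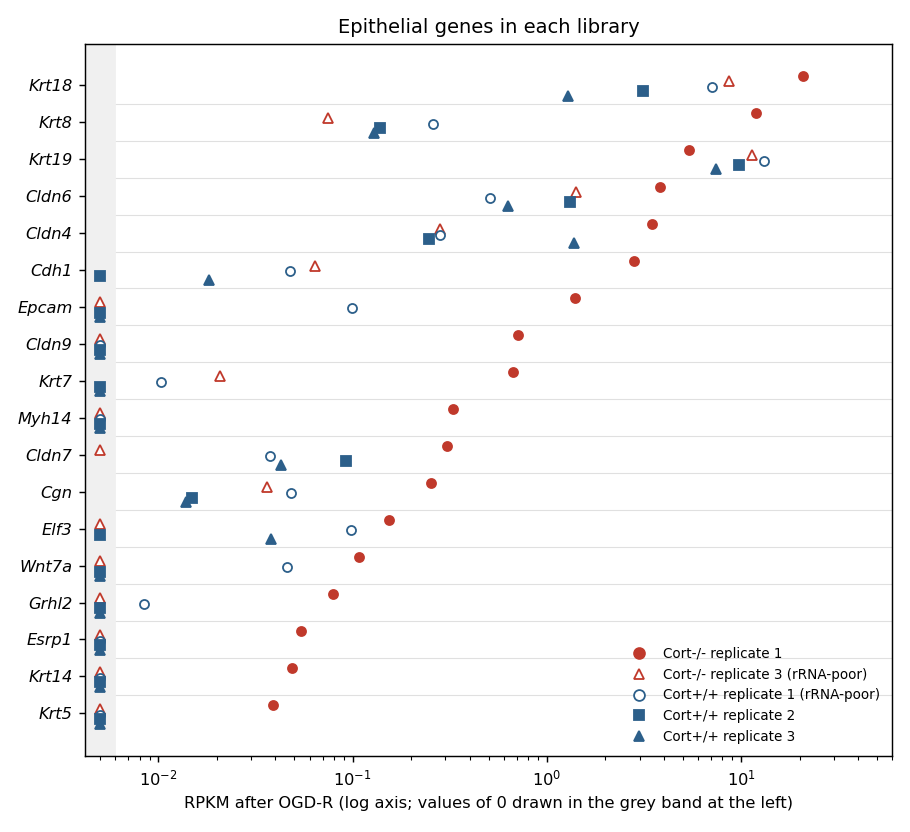
RPKM after OGD-R (log axis, values of 0 in the grey band) of the 18 epithelial markers in each library. Cort-/- replicate 1 (filled red circles) is the highest for every gene except Krt19, and Cort-/- replicate 3 lies among the Cort+/+ libraries for most.

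Adherens and gap junction genes and barrier transporters had medians near that of all genes tested. Of 20 adherens and gap junction genes tested, 0 were higher and 1 was lower at an unadjusted p under 0.05 (median 0.02). That gene was Gja1, connexin 43, at 9.04 and 12.1 RPKM in Cort-/- and at 14.8, 15.2 and 15.4 RPKM in Cort+/+ (-0.53, SE 0.14, and -0.55 without Cort+/+ replicate 1). Of 30 barrier transporters 1 was higher, Slco4a1 (above), and 2 were lower, with a median of 0.00. The counts became 3 higher and 1 lower without Cort+/+ replicate 1, and 1 higher and 0 lower without Cort-/- replicate 1. Slc22a17, a receptor for lipocalin 2, was at 1.55 and 1.78 RPKM against 2.82, 2.81 and 2.19 RPKM (-0.61, SE 0.19), and the calcium pump Atp2b4 at 1.16 and 1.26 RPKM against 2.10, 1.66 and 1.797 RPKM (-0.57, SE 0.20), with unadjusted limma p of 0.0575 and 0.0983 without Cort+/+ replicate 1. The glucose transporter of the barrier, Slc2a1, was at 40.3 and 36.6 RPKM against 30.5, 33.5 and 35.03 RPKM (0.22, SE 0.11), which was not past that p.

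Integrins, which hold endothelium to its basement membrane, had 2 higher and 1 lower of 16 (median 0.12), and 2 and 0 when either Cort+/+ replicate 1 or Cort-/- replicate 1 was left out. Itga3, the laminin receptor subunit, was at 61.8 and 64.7 RPKM in Cort-/- against 45.1, 39.8 and 42.3 RPKM in Cort+/+ (0.58, SE 0.11). Itga4, a subunit of the receptor for VCAM-1 and fibronectin, was at 6.79 and 7.25 RPKM against 5.66, 4.39 and 4.79 RPKM (0.50, SE 0.14). Both were more different in value without Cort+/+ replicate 1, by 0.62 (SE 0.12) and 0.60 (SE 0.12). Itga11, a collagen receptor subunit of mesenchymal cells, was at 1.58 and 1.27 RPKM against 1.93, 1.91 and 2.20 RPKM (-0.48, SE 0.19).

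Of 29 basement membrane and matrix glycoprotein genes tested, 21 had a value below 0, beside 7475 of all 14325. At an unadjusted p under 0.05, 6 were lower and 0 higher, against 2.24% and 1.48% of all genes tested, with a median of -0.33. Leaving out Cort+/+ replicate 1 gave 4 lower and 1 higher with a median of -0.15, and leaving out Cort-/- replicate 1 gave 3 lower and 0 higher with a median of -0.11. Biglycan (Bgn), a small proteoglycan, was at 151 and 166 RPKM in Cort-/- and at 208, 215 and 193 RPKM in Cort+/+ (-0.37, SE 0.12). Smoc2, a calcium-binding matrix protein, was at 3.86 and 3.65 RPKM against 7.11, 6.65 and 5.39 RPKM (-0.74, SE 0.15). Mfap2, a component of elastic microfibrils that lies 8.11 Mb from Cort, was at 4.15 and 3.51 RPKM against 7.88, 10.8 and 6.22 RPKM (-1.06, SE 0.24). Both genotypes kept apart for these 3 genes in all libraries. Thrombospondin 2 (Thbs2), an inhibitor of vessel growth, was at 5.92 and 7.53 RPKM against 14.7, 9.77 and 9.14 RPKM, and its difference of -0.71 (SE 0.24) was -0.49 (SE 0.16) without Cort+/+ replicate 1, which was the highest library. Mfap5 (-0.57) and Fbln1 (-0.46) were the other 2.

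Collagens were mixed. Of 20 tested, 1 was higher and 2 were lower with a median of 0.02. They had 0 higher and 1 lower with a median of 0.14 without Cort+/+ replicate 1, and 0 and 3 with a median of -0.05 without Cort-/- replicate 1. Col3a1, a fibrillar collagen of vessel walls, was at 38.5 and 45.5 RPKM in Cort-/- and at 63.1, 66.5 and 61.7 RPKM in Cort+/+ (-0.61, SE 0.12). Col18a1, the basement membrane collagen that is the source of endostatin, was at 219 and 200.1 RPKM against 173, 158 and 175 RPKM (0.31, SE 0.12). The main collagen of the basement membrane, Col4a1, overlapped between genotypes, at 724 and 648 RPKM against 681, 548 and 666 RPKM (0.12, SE 0.17). Under NX/NG the same 20 genes had 1 higher and 10 lower, with a median of -0.56. Col1a1 was at 119.6 and 141 RPKM against 222, 186 and 129.8 RPKM after OGD-R (-0.43, SE 0.25), and its interaction of genotype and environment was 0.92 (SE 0.37, limma FDR 1.00).

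Enzymes that process and crosslink collagen had 0 higher and 4 lower of 16, with a median of -0.25. They had 1 higher and 1 lower with a median of -0.19 without Cort+/+ replicate 1. Lysyl oxidase (Lox) was at 10.1 and 14.4 RPKM in Cort-/- and at 18.8, 17.7 and 17.4 RPKM in Cort+/+ (-0.57, SE 0.17). Loxl1, its relative, was at 10.8 and 13.6 RPKM against 18.4, 18.5 and 14.8 RPKM (-0.50, SE 0.16). The lysyl hydroxylase gene Plod2 was at 14.4 and 14.5 RPKM against 20.3, 18.7 and 16.9 RPKM (-0.36, SE 0.11), and Pcolce, which enhances procollagen cleavage, at 17.3 and 25.4 RPKM against 34.3, 37.3 and 27.8 RPKM (-0.65, SE 0.21). Cort-/- replicate 1 was the lowest library for all 4, and without it 0 of the 16 were lower at an unadjusted p under 0.05 and the median was -0.15. Among 28 proteases and their inhibitors only Mmp14, a membrane-bound collagenase, had such a p (33.5 and 33.6 RPKM against 44.1, 43.2 and 36.8 RPKM).

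The cells that make most fibrillar collagen were also represented unequally by their markers. Of 11 fibroblast and leptomeningeal markers tested out of 16 listed, 0 were higher and 3 were lower (Col3a1, Twist1 and Crabp2), with a median of -0.54, with 0 and 3 and a median of -0.54 without Cort+/+ replicate 1, and with 0 and 1 and a median of -0.40 without Cort-/- replicate 1. Their summed level, given above beside Pdpn, was lowest in Cort-/- replicate 1, and Cort+/+ replicate 3 lay below Cort-/- replicate 3. Decorin (Dcn) was at 0.818 and 0.941 RPKM against 1.93, 1.47 and 0.803 RPKM. In bulk RNA, fewer cells of a type and less RNA per cell cannot be told apart. The part of these markers in the matrix values was not tested.

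Markers of the other cell types that the cultures could hold were summed in the same way. Pericyte markers summed to 18.3 and 23.6 RPKM in Cort-/- and to 27.0, 27.1 and 20.01 RPKM in Cort+/+. Smooth muscle markers ranged from 1071 to 1769 RPKM, with Acta2 between 629.9 and 999 RPKM and Tagln between 358 and 684 RPKM, both overlapping. Macrophage and microglial markers ranged from 81.2 to 103 RPKM, of which Laptm5 made up 55.6 and 44.7 RPKM in Cort-/- and 34.6, 41.9 and 37.7 RPKM in Cort+/+ (0.39, SE 0.14), and Itgam, Tyrobp and Adgre1 were not in the table. Choroid plexus epithelial markers ranged from 23.97 to 28.5 RPKM, astrocyte markers from 2.26 to 4.32 RPKM, oligodendrocyte markers from 12.04 to 14.2 RPKM and neuron markers from 9.76 to 18.5 RPKM. The neuron markers were mostly Tubb3, at 7.21 and 9.77 RPKM against 13.8, 14.6 and 11.2 RPKM (-0.64, SE 0.18). Oligodendrocyte markers were mostly Cnp, between 11.4 and 13.7 RPKM, and Olig1, Olig2 and Mag were not in the table. Choroid plexus epithelial markers were mostly Clic6, between 13.1 and 19.1 RPKM, and Aqp1, between 3.73 and 10.04 RPKM.

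Vessel growth genes differed in both directions. Of 37 tested, 3 were higher and 6 were lower at an unadjusted p under 0.05 (median 0.03), against 1.48% and 2.24% of all genes tested. The 6 include Pdpn (above), which lies near Cort. The counts were 2 and 3 without Cort+/+ replicate 1, and 0 and 2 without Cort-/- replicate 1. Vegfa, the main growth factor of endothelium and a target of hypoxia, was at 7.998 and 8.59 RPKM in Cort-/- and at 13.5, 11.7 and 10.2 RPKM in Cort+/+ (-0.49, SE 0.14, and -0.39 without Cort+/+ replicate 1). Vegfd, a lymphatic growth factor, was at 1.31 and 2.13 RPKM against 2.48, 3.10 and 3.06 RPKM (-0.74, SE 0.24). A receptor for that factor, Flt4, was higher, at 18.0 and 16.7 RPKM against 15.0, 13.5 and 14.4 RPKM (0.28, SE 0.10). Srpx2, a secreted ligand of the urokinase receptor, was at 15.1 and 17.3 RPKM against 11.2, 12.97 and 7.76 RPKM (0.63, SE 0.23), and the scavenger receptor Stab1 at 32.2 and 28.5 RPKM against 26.7, 22.1 and 20.1 RPKM (0.41, SE 0.15). All of these kept the genotypes apart.

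Transcription factors of endothelial and mesenchymal fate had 0 higher and 6 lower of 28 (median -0.10), against 1.48% and 2.24% of all genes tested. Nr2f2 (COUP-TFII), which specifies veins, was at 3.62 and 3.93 RPKM in Cort-/- and at 5.09, 5.08 and 5.08 RPKM in Cort+/+ (-0.42, SE 0.10). The other 5 are known mainly as mesenchymal regulators: Prrx1 was at 8.12 and 9.30 RPKM against 10.7, 11.1 and 12.1 RPKM (-0.37, SE 0.11). Snai2 was at 5.95 and 6.85 RPKM against 8.76, 8.02 and 7.95 RPKM (-0.36, SE 0.11), and Tbx15 (-0.62), Twist2 (-0.69) and Twist1 (-0.65) were also lower. Without Cort+/+ replicate 1, 3 of the 28 were lower at that p, and without Cort-/- replicate 1, 1 was.

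In the TGF-beta and BMP pathway 1 of 36 was higher and 5 were lower, against 1.48% and 2.24% of all genes tested, with a median of -0.15. It had 1 higher and 4 lower with a median of -0.12 without Cort+/+ replicate 1, and 0 and 5 with a median of -0.09 without Cort-/- replicate 1. Beside Inhbb (above), the BMP receptor Bmpr1a was at 4.16 and 5.18 RPKM in Cort-/- and at 7.04, 6.68 and 8.10 RPKM in Cort+/+ (-0.63, SE 0.15). Tgfbi, a matrix protein induced by TGF-beta, was at 5.27 and 4.68 RPKM against 6.86, 8.14 and 6.79 RPKM (-0.53, SE 0.13), and the BMP antagonist Grem1 at 5.32 and 4.47 RPKM against 6.09, 7.55 and 7.503 RPKM (-0.52, SE 0.15). The higher one was the phosphatase Ptprk (0.42, SE 0.12). Of 24 Wnt pathway genes 0 were higher and 2 lower (Dact3, -0.50, and Fzd7, -0.58), with a median of -0.26. The median was -0.14 without Cort+/+ replicate 1 and also -0.14 without Cort-/- replicate 1, with 0 genes at that p in both. Of 14 genes of the IGF axis none had such a p (median -0.15, and -0.05 without Cort-/- replicate 1).

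**Figure D5:**
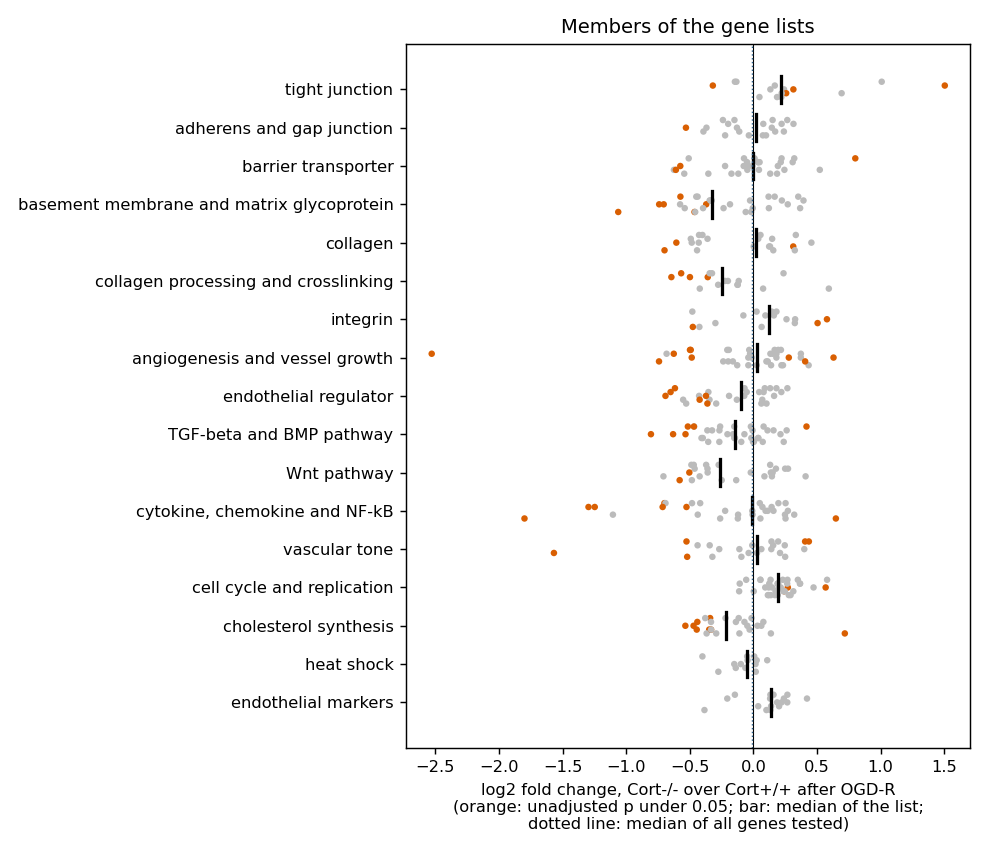
Log2 fold change of Cort-/- over Cort+/+ after OGD-R for each tested member of the gene lists named on the vertical axis, 1 point for each gene, orange where the unadjusted p was under 0.05, with a bar at the median of the list. Cell cycle genes lie mostly to the right of 0, and the basement membrane, Wnt and collagen processing lists have their medians furthest to the left.

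In lists of programs that oxygen and glucose deprivation is known to start, medians 20 h after the return of oxygen lay between -0.07 and -0.01. Whether the genotypes are alike in these programs was not tested. Of 25 hypoxia target genes tested, 1 was higher, Nos3, and 1 was lower, Vegfa, with a median of -0.07. Nos3, the endothelial nitric oxide synthase, was at 34.0 and 36.0 RPKM in Cort-/- and at 27.1, 25.5 and 25.0 RPKM in Cort+/+ (0.44, SE 0.10), a difference of 0.47 (SE 0.11) without Cort+/+ replicate 1. Of 21 glycolysis genes only Eno1b had an unadjusted p under 0.05 (median -0.03), and of 24 antioxidant and NRF2 target genes only heme oxygenase 1 (Hmox1) did (median -0.03). Hmox1 was at 124 and 139 RPKM against 96.1, 112 and 96.6 RPKM (0.37, SE 0.13). Of 22 unfolded protein and integrated stress response genes, Chac1, which degrades glutathione, was the one at that p, at 5.68 and 4.88 RPKM against 4.27, 4.07 and 3.68 RPKM (0.39, SE 0.13). None of 13 heat shock genes had it (median -0.05). Without Cort+/+ replicate 1, 0 antioxidant genes, 2 stress response genes (higher) and 1 heat shock gene (lower) were at that p. Of 21 immediate early genes 0 were higher and 2 lower (median -0.01): Nr4a1 at 2.94 and 3.61 RPKM against 5.27, 5.18 and 4.43 RPKM (-0.59, SE 0.15), and Fos at 3.15 and 3.12 RPKM against 4.46, 4.13 and 3.98 RPKM (-0.41, SE 0.11).

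Of 31 cytokine, chemokine and NF-kB genes tested, 1 was higher and 6 were lower at an unadjusted p under 0.05, against 1.48% and 2.24% of all genes tested, and 2 of the 6, Tnfrsf1b and Tnfrsf8, lie near Cort. By sign 14 were above and 17 below 0, with a median of -0.01. The counts were 2 and 6 without Cort+/+ replicate 1, and 1 and 4 without Cort-/- replicate 1. Beside Tnfrsf1b and Tnfrsf8, Il11, a cytokine of the interleukin 6 family, was at 4.42 and 3.66 RPKM in Cort-/- and at 6.54, 7.01 and 6.27 RPKM in Cort+/+ (-0.70, SE 0.13). Cd80, a co-stimulatory ligand for T cells, was at 6.95 and 10.1 RPKM against 12.3, 15.2 and 14.2 RPKM (-0.71, SE 0.19). Il34, a ligand of the CSF-1 receptor, was at 0.435 and 1.27 RPKM against 2.12, 1.70 and 2.01 RPKM (-1.25, SE 0.43). The higher one, Ulbp1, a stress ligand for natural killer cells, was at 62.4 and 46.1 RPKM against 33.9, 31.8 and 37.0 RPKM (0.65, SE 0.16). None of these 4 overlapped between genotypes.

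Interferon-stimulated genes depended on the library left out. Of 28 tested, 1 was higher, Slfn9 (0.34, SE 0.13), and 0 were lower, with a median of -0.09. Without Cort+/+ replicate 1, 1 was higher and 3 were lower and the median was -0.27, and under NX/NG the median was 0.38. Of 10 MHC and antigen presentation genes only the peptide transporter Tap1 had an unadjusted p under 0.05, at 3.39 and 3.31 RPKM against 4.14, 4.26 and 4.08 RPKM (-0.30, SE 0.11). Leukocyte adhesion genes had 1 higher and 2 lower of 15 (median 0.09), and 0 and 0 when either Cort+/+ replicate 1 or Cort-/- replicate 1 was left out: the sialomucin Cd34 was at 51.7 and 48.2 RPKM against 34.6, 39.9 and 41.4 RPKM (0.37, SE 0.12), Alcam at 5.39 and 7.03 RPKM against 10.5, 7.57 and 9.53 RPKM (-0.56, SE 0.19), and Jam3 is given above.

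Vascular tone genes had 2 higher and 3 lower of 23 (median 0.03), 3 and 3 without Cort+/+ replicate 1, and 2 and 1 without Cort-/- replicate 1. The higher ones were Nos3 and Mylk, the kinase that drives contraction of the actin cytoskeleton, at 4.44 and 4.73 RPKM against 3.65, 3.43 and 3.23 RPKM (0.41, SE 0.12). The lower ones were the natriuretic peptide clearance receptor Npr3, cyclooxygenase 1 (Ptgs1) and angiotensinogen (Agt). Npr3 was at 4.68 and 5.12 RPKM against 7.78, 6.76 and 6.70 RPKM (-0.52, SE 0.12), and Ptgs1 at 10.3 and 11.4 RPKM against 16.9, 16.9 and 13.4 RPKM (-0.53, SE 0.14). Agt was at 0.451 and 0.271 RPKM against 0.655, 1.43 and 1.99 RPKM, and its difference of -1.57 (SE 0.56) was -1.98 (SE 0.46) without Cort+/+ replicate 1, the lowest of its group.

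Most of the listed cell cycle and replication genes had a small positive value. Of 39 tested, 36 lay above 0, 22 kept both Cort-/- libraries above all Cort+/+ libraries and 0 kept them below, and 3 were higher at an unadjusted p under 0.05. Over all 14325 genes tested 6850 lay above 0, 7.94% kept both Cort-/- libraries above and 8.22% below, and 1.48% were higher at that p. Pttg1, the gene of securin (above), was lower in Cort-/- and is not in this list, whose lowest value was -0.11. The median of the list was 0.19, and 0.23 without Cort+/+ replicate 1, when 7 were higher at that p. Cyclin D1 (Ccnd1), which starts the cycle, was at 214 and 196 RPKM in Cort-/- and at 132, 139 and 144 RPKM in Cort+/+ (0.57, SE 0.12). Mcm5, a subunit of the replicative helicase, was at 13.3 and 14.9 RPKM against 12.1, 11.3 and 11.7 RPKM (0.27, SE 0.10), and cyclin B1 (Ccnb1) at 8.23 and 7.92 RPKM against 7.11, 6.79 and 6.55 RPKM (0.24, SE 0.10). The proliferation marker Mki67 was at 19.1 and 21.3 RPKM against 18.96, 12.4 and 16.9 RPKM, a value of 0.35 (SE 0.20). Cort+/+ replicate 1 lay just below Cort-/- replicate 1 for this gene. Under NX/NG 12 of the 39 were higher and 1 was lower, with a median of 0.18. Of 26 p53 targets and cell death genes only Dffa, near Cort, had such a p (median 0.00).

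In cholesterol synthesis 1 of 25 genes was higher and 7 were lower at an unadjusted p under 0.05, and 12 kept both Cort-/- libraries below all Cort+/+ libraries. The shares over all genes tested were 1.48% higher and 2.24% lower at that p, and 8.22% without overlap and lower. Sterol 14-demethylase (Cyp51) was at 14.8 and 16.7 RPKM in Cort-/- and at 20.5, 21.5 and 22.6 RPKM in Cort+/+ (-0.45, SE 0.11). An early step was represented by Hmgcs1, at 19.4 and 20.6 RPKM against 25.7, 26.2 and 29.7 RPKM (-0.44, SE 0.11). Nsdhl (-0.33), Msmo1 (-0.47), Sqle (-0.35) and Lss (-0.54) are later enzymes of the same pathway. The regulators of the pathway overlapped between genotypes, with Srebf2 at 17.4 and 17.5 RPKM against 20.3, 16.2 and 17.2 RPKM (-0.03, SE 0.13) and Insig1 at 32.0 and 25.0 RPKM against 24.4, 30.5 and 25.9 RPKM (0.08, SE 0.16). The median of the 25 was -0.22. Without Cort+/+ replicate 1 it was -0.23 with 1 higher and 5 lower, and without Cort-/- replicate 1 it was -0.10 with 1 higher and 3 lower. Under NX/NG 1 was higher and 9 were lower, with a median of -0.30.

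The peptide system that the deletion targets was below the level tested. Of 11 genes of the cortistatin and somatostatin system 7 were in the table and 0 reached 1 RPKM in 2 libraries. Sstr4 had the most, with 4 and 16 reads in Cort-/- and 18, 12 and 16 reads in Cort+/+. Sstr2, a receptor that binds both peptides, had 17 and 7 reads against 3, 7 and 13, and Ghrl, the ghrelin gene, had 9 and 12 against 20, 8 and 10. The libraries of the genotypes overlapped for all 3.

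The study's text names 24 genes for this comparison, which it chose on these samples, so their direction is not independent evidence. Of these, 15 were tested, 8 were higher and 1 was lower at an unadjusted p under 0.05, with a median of 0.50. The 8 were Slco4a1, Itga3, Ulbp1, Itga4, Mylk, Krt18, Stab1 and Cldn6, and the lower one was Nr4a1. Osteopontin (Spp1), among the most abundant of them, was at 889.8 and 919 RPKM in Cort-/- and at 750.5, 1432 and 1784 RPKM in Cort+/+ (-0.46, SE 0.38). Cort+/+ replicate 1 lay below both Cort-/- libraries, and without it the difference was -0.82 (SE 0.23). The 9 that were not tested include Krt8, Cdh1, Epcam, Krt7, Cldn9, Myh14 and Cgn, each with its highest value in Cort-/- replicate 1.

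Among abundant genes the differences were small. The 10 genes with the highest mean RPKM among those at an unadjusted p under 0.05 were Bgn, Col18a1, ENSMUSG00002074901, Ccnd1, Mir6950, Hmox1, Nes, Serpinf1, Cgnl1 and Nudt4. Pigment epithelium-derived factor (Serpinf1), a secreted inhibitor of vessel growth, was at 65.4 and 91.7 RPKM in Cort-/- and at 146, 128 and 107 RPKM in Cort+/+ (-0.70, SE 0.21, and -0.59 without Cort+/+ replicate 1). Nestin (Nes), an intermediate filament of dividing endothelium, was at 134 and 114 RPKM against 97.7, 97.3 and 101 RPKM (0.32, SE 0.12). Nudt4, a diphosphoinositol phosphatase, was at 53.2 and 65.6 RPKM against 69.7, 88.2 and 84.4 RPKM (-0.44, SE 0.16). Of 13 mitochondrial messengers 1, mt-Co3, was higher at that p, with 28 and 27 reads against 16, 19 and 17 (0.59, SE 0.21), and 99.9% of its 40-base words also occur in Gm28437, so the source of these reads is uncertain. Its p was not under 0.05 without Cort+/+ replicate 1, and the median of the list was -0.18, or -0.41 without that library. Of all genes at an unadjusted p under 0.05, 36 were higher and 61 were lower by at least 2-fold.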

How the data were processed

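RNA of 5 OGD-R libraries (2 Cort-/- and 3 Cort+/+) was compared, with the 5 NX/NG libraries beside them. The RPKM values were computed and deposited by the authors with the reanalyzerGSE pipeline, and the submitters' processing notes name edgeR. The aligner, genome build and annotation are not given in the sources used here. RPKM times gene length was within 0.05 of whole reads, which gave between 12386048 and 12390428 reads per library. The methods and the labels state a larger average number of read pairs and differ from each other in kit and read length. The deposited fold changes, p-values, FDR and mean abundance come from the authors' own comparison and were not used, nor were 10 columns of expression categories.

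Fits were made on log2(RPKM + 0.1) with limma 3.58.1 (trended empirical Bayes, R 4.3.3) and no covariates, for the genes reaching 1 RPKM in 2 or more libraries. A call needed an FDR, adjusted by Benjamini-Hochberg, of 0.05 or less. The p-values are two-sided. The fit was tested on simulated data drawn from the mean composition of the libraries. That simulation held no ribosomal RNA-poor libraries, so it does not cover that difference. Both tables were scaled apart by the authors, so the interaction was taken between differences within each table. Positions come from GENCODE vM21 (GRCm38) by symbol for 28228 of 29775 genes (94.8%), and promoters from RefSeq.

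The genes named are the 30 with the lowest p, the 10 most abundant at an unadjusted p under 0.05, up to 4 of each list with the lowest p (other members of a list are named beside them after their values were seen), those of the cortistatin system, cell type markers, genes that the study's text names and genes near Cort. The lists and the libraries were chosen with earlier results of these data known. Alternatives were a pseudocount of 1, no filter, at least 10 reads, quantile normalization, a replicate block, a term for ribosomal RNA-poor libraries, limma-voom on recovered reads, all 4 groups in 1 fit and each library left out. The correlation of deviations from the group means was -0.44 for the libraries numbered 1 and -0.29 for those numbered 3. The deviations of 2 Cort-/- libraries mirror each other, so these values cannot tell whether the same number marks a shared batch. Some members of the lists enter the counts and are not reported by name here.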

Additional observations from a re-analysis of the deposited data

How the results depend on the processing

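The count of genes called after OGD-R was 0 with a pseudocount of 1, without a filter, with quantile normalization, with a replicate block, with a term for ribosomal RNA-poor libraries and in the range from 0 to 0 when each library was left out. It was 2 with at least 10 reads (Pdpn and Rab6b), 1 with limma-voom (Pdpn) and 4 with all 4 groups in 1 fit (Pdpn, Rab6b, Tnfrsf1b and Mir7019). Alternatives chosen after seeing the data called 2 genes among those of at least 200 bases (Pdpn and Rab6b) and 5 with limma-voom and a term for ribosomal RNA-poor libraries (Pdpn, Rab6b, Tnfrsf1b, Zfp990 and Gm42047), and 0 without both ribosomal RNA-poor libraries and with limma-voom without Cort+/+ replicate 1. The 533 genes at an unadjusted p under 0.05 became 1019 without a filter, 248 with the replicate block, 818 with the term for ribosomal RNA-poor libraries, 868 with limma-voom and that term, 1025 without both ribosomal RNA-poor libraries, and between 350 (without Cort+/+ replicate 2) and 909 (without Cort-/- replicate 3) when a library was left out. Under NX/NG, where 0 genes were called, 6 were with at least 10 reads, 53 with limma-voom and 3 with all 4 groups in 1 fit, and 0 when any library was left out. The interaction had 3 calls without a filter and between 0 and 2 when a library was left out, the 2 without Cort-/- OGD-R replicate 1. The cause of these differences was not tested.

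The replicate numbers do not mark a shared animal or batch in the labels, and the deviations of the libraries cannot tell whether they do. The replicate block, which leaves Cort+/+ replicate 2 without a partner, is given only as an alternative. Of 139 named genes that were followed through the alternatives, the log2 fold change turned its direction under some alternative for 11. None of the 11 was called, which follows from the main fit calling no gene. Many of the 139 were picked by their p in these same libraries, which makes a turn less likely. Marker genes and others outside the 139 turned too. Without Cort-/- replicate 3, Col1a2 went from 0.038 to -0.30, Cnn1 from 0.057 to -0.43 and ENSMUSG00002076173 from -1.06 to 1.98. When each library was left out in turn, Aldh1l1 (0.32 with all) lay between -0.30 and 0.94, Aqp1 (-0.17) between -0.87 and 0.53, Cd93 (0.32) between -0.049 and 0.69, Clic6 (-0.08) between -0.30 and 0.14, and Hsp90ab1 (0.018) between -0.016 and 0.049. Hspa8 (0.026) lay between -0.13 and 0.18, Igfbp7 (-0.079) between -0.17 and 0.016, Insig1 (0.078) between -0.097 and 0.25, Srebf2 (-0.03) between -0.098 and 0.064, Tagln (-0.37) between -0.76 and 0.021, and Tjp1 (0.24) between -0.12 and 0.60. The direction turned for Aqp1 with the replicate block (0.0041) and for Igfbp7 with quantile normalization (0.011). Without both ribosomal RNA-poor libraries Clic6 was 0.063, Hsp90ab1 -0.0021, Hspa8 -0.12 and Srebf2 0.058. With limma-voom and the term for ribosomal RNA-poor libraries Hspa8 was -0.0034, and with limma-voom without Cort+/+ replicate 1 Srebf2 was 0.064.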

Other observations

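Among the genes that reached 1 RPKM in 2 or more libraries, which leaves out Krt8, Cdh1 and Epcam, the 5 per OGD-R library with the widest gap above the other libraries were shorter than 200 bases. Most had few reads: those of Cort-/- replicate 1 had 3 to 5 reads and those of Cort-/- replicate 3 had 4 to 8. Counts were higher in Cort+/+ replicate 2, where ENSMUSG00002075188 had 56 reads and ENSMUSG00002076173 had 38482 reads, at 60794 RPKM against 16004 RPKM in the next library. Such a gene takes reads from every other gene of its library, and its part in the values of Cort+/+ replicate 2 was not tested.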
